A study of Mus musculus with 96 samples.

Results

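Pancreatic islets of male C57BL/6N mice after 24 weeks on a high-fat diet (HFD) were compared with islets of mice kept on chow diet (CD) for the same time. The members are the 8 islet libraries whose labels give 24 weeks on diet, 4 HFD and 4 CD mice, out of 96 libraries of islets and liver in the series. The mice were bought at 4 weeks of age, and HFD (Research Diets D12492) held 60% fat and CD (LabDiet 5001) held 13.5% fat by the labels. Each library came from the islets of 1 mouse, which had been freed with collagenase P, separated on a Histopaque gradient and picked by hand, and poly(A) RNA was sequenced. The CD mice are CD601, CD605, CD606 and CD608, the HFD mice are HFD611, HFD614, HFD616 and HFD617, and values per mouse are given in these orders. Expression is in FPKM (fragments per kilobase of transcript per mapped fragments of the library), which is already scaled by transcript length. The diet was tested for 11709 genes with limma on log2(FPKM + 1), so that the log2 fold changes (HFD minus CD, given with the standard error, SE) of genes with few FPKM are smaller than the ratios of their means. A gene passed at an adjusted p under 0.05 (Benjamini-Hochberg, over all genes tested) and was called a DEG when its log2 fold change was also at least 1 in size.

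Islets are small clusters of endocrine cells in which beta cells, which make insulin, are the largest population in mice. Around them lie alpha cells, which make glucagon and raise blood glucose, delta cells, whose somatostatin restrains both neighbours, and pancreatic polypeptide cells, while a dense capillary bed with pericytes and a basement membrane supplies the cluster. Under a long high-fat diet, mouse beta cells are known to enlarge, divide and secrete more insulin, which is folded as proinsulin in the endoplasmic reticulum.

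Insulin transcripts marked all 8 libraries as islets. Ins1 and Ins2, which encode the mouse insulins, made up 65.1%, 70.8%, 68.4% and 61.6% of the summed FPKM in CD mice and 68.0%, 67.2%, 62.6% and 70.1% in HFD mice. The groups overlapped, with 66.5% ± 4.00 in CD and 66.9% ± 3.14 in HFD mice (SD, n = 4 each; exact two-sided permutation test, p = 0.886, where 0.0286 is the smallest p that 4 against 4 mice allow). Correlations of log2(FPKM + 1) between the 8 libraries were between 0.970 and 0.992 across genes, and 11519 to 11787 genes had at least 1 FPKM in a library. Transcripts of other cells separated some mice from the rest. CD606 and CD608 held lymphoid transcripts, with summed FPKM of 13 T cell markers of 1.13, 0.76, 11.3 and 12.7 in CD and 1.07, 0.49, 0.55 and 1.3 in HFD mice, and of 10 B cell markers of 11, 7.72, 51.5 and 46.9 in CD and 7.3, 3.98, 4.86 and 8.76 in HFD mice. Acinar transcripts, those of the enzyme-secreting pancreas around the islets, summed to 33669, 47388, 37730.2 and 87328 FPKM in CD and 46161, 24542, 22575 and 23037 FPKM in HFD mice over 29 markers, so that CD608 stood highest and HFD611 fell among the CD mice. Hepatocyte markers reached 63.1 FPKM in HFD617 and at most 5.76 in the other 7 libraries, and the 6 adipocyte markers summed to at most 0.21 FPKM. The part of these cells in the results below was not tested, but the counts over the main lists are also given without CD606 and CD608, a setting that has fewer mice and was added after the data were seen.

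**Figure D1:**
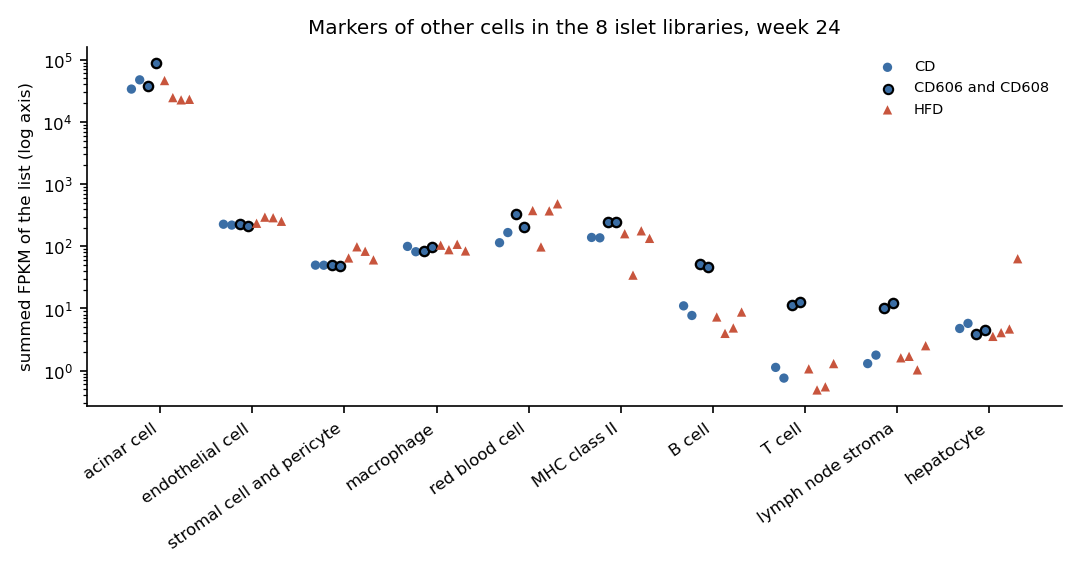
Summed FPKM of marker genes of other cell types (log axis) in the 4 CD and 4 HFD islet libraries of week 24, each point 1 mouse. CD606 and CD608, ringed, lie above the other 6 libraries in B cell, T cell and lymph node stroma markers, and HFD617 lies highest in hepatocyte markers.

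After 24 weeks, 972 genes passed (8.3% of those tested), 769 of them higher (6.57%) and 203 lower (1.73%) in HFD mice. Of these, 86 were DEGs (0.734%), 35 higher (0.299%) and 51 lower (0.436%), and in each of the 86 the 4 HFD mice lay outside the range of the 4 CD mice. Such separation was common among the genes tested, of which 13.7% were higher and 2.41% lower in HFD without overlap. The share of higher genes among those that passed was 79.1%, and it was 60.6% when libraries were scaled by median ratios, while the median log2 fold change of all genes was 0.08 and 0.01 in the respective fits. Of the 86 DEGs, 77 passed in each of the 8 fits that leave out 1 mouse, and 74 passed without CD606 and CD608. Without these 2 libraries, 283 genes were higher (2.38%) and 156 lower (1.31%) of 11889 tested. Counts of the lists without them are to be read against these shares. Counts with 1 mouse left out are to be read against 382 to 980 higher and 149 to 219 lower genes.

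The hormone genes of the minor endocrine cells were lower in HFD islets, while the insulin genes were not. Of 9 hormone genes, Gcg, Sst, Pyy, Npy, Ppy and Ghrl fell and Iapp rose, where 1.73% of all genes fell and 6.57% rose. The median log2 fold change of the list was -2.22, against 0.08 for all genes tested. In bulk islets, fewer cells of a type and less RNA per cell cannot be told apart.

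Gcg, which encodes glucagon (GRCm38, chromosome 2, 62474530 to 62491679), had 12542, 6678, 9936 and 11679.5 FPKM in CD and 950.1, 1026, 1493 and 1961 FPKM in HFD mice. The highest HFD mouse was far below the lowest CD mouse, the means differed 7.52-fold and the difference was -2.93 (SE 0.31, adjusted p = 0.0027) on the log2 scale. Sst, which encodes somatostatin (chromosome 16, 23889581 to 23890844), had 2889.9, 2269, 2259 and 2662 FPKM in CD and 321, 339, 361 and 615 FPKM in HFD mice. CD mice varied little in Sst and HFD617 was the highest of the HFD mice, as it was in Gcg, and the difference was -2.66 (SE 0.21, adjusted p = 0.00034).

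The pancreatic polypeptide cell list held 2 genes, Ppy and Pyy, which lie close together on chromosome 11. Ppy, which encodes pancreatic polypeptide, had 2509.6, 2178, 1578 and 2080.01 FPKM in CD and 345, 535, 300.3 and 679.97 FPKM in HFD mice, with a log2 change of -2.22 (SE 0.30, adjusted p = 0.0076). Pyy, the gene of peptide YY, had 1626, 1206, 1439 and 1686 FPKM in CD and 181, 336, 264 and 335 FPKM in HFD mice, with a log2 change of -2.44 (SE 0.22, adjusted p = 0.00065). Neither gene overlapped between the diets, and the group means differed 4.49-fold for Ppy and 5.34-fold for Pyy.

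The remaining lower hormones were expressed at a few FPKM. Every HFD mouse was under 1 FPKM in them, so they were tested only through the CD mice. Ghrl, which encodes ghrelin, had 3.32, 3.4, 3.96 and 6 FPKM in CD and 0.11, 0.76, 0.66 and 0.96 FPKM in HFD mice, with a log2 change of -1.67 (SE 0.20, adjusted p = 0.00089). For Npy, which encodes neuropeptide Y, the CD mice had 10.9, 4.96, 3.93 and 3.53 FPKM, and among the HFD mice HFD614 was listed at 0 and the others at 0.22, 0.35 and 0.73 FPKM, with a log2 change of -2.28 (adjusted p = 0.011). All 6 lower hormone genes passed in each of the 8 fits without 1 mouse. Without CD606 and CD608, Sst, Pyy, Npy and Ghrl passed, while Gcg was at -2.81 (adjusted p = 0.061) and Ppy at -2.40 (adjusted p = 0.068).

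Iapp encodes islet amyloid polypeptide, which beta cells release together with insulin. It had 23394, 32456, 27798 and 23318 FPKM in CD and 36959.6, 38714, 38015 and 33239.7 FPKM in HFD mice, with a log2 change of 0.47 (SE 0.11, adjusted p = 0.017). All HFD mice were above all CD mice, but the call was lost without CD601, CD608 or HFD616, without CD606 and CD608 together (0.41 (adjusted p = 0.15)) and with median ratio scaling (0.40, adjusted p = 0.26). Ins1 and Ins2 had log2 fold changes of 0.02 (adjusted p = 0.96) and -0.01 (adjusted p = 0.98), with standard errors of 0.12 and 0.13 and overlapping groups, and how reads of these similar genes were divided between them is not known.

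**Figure D2:**
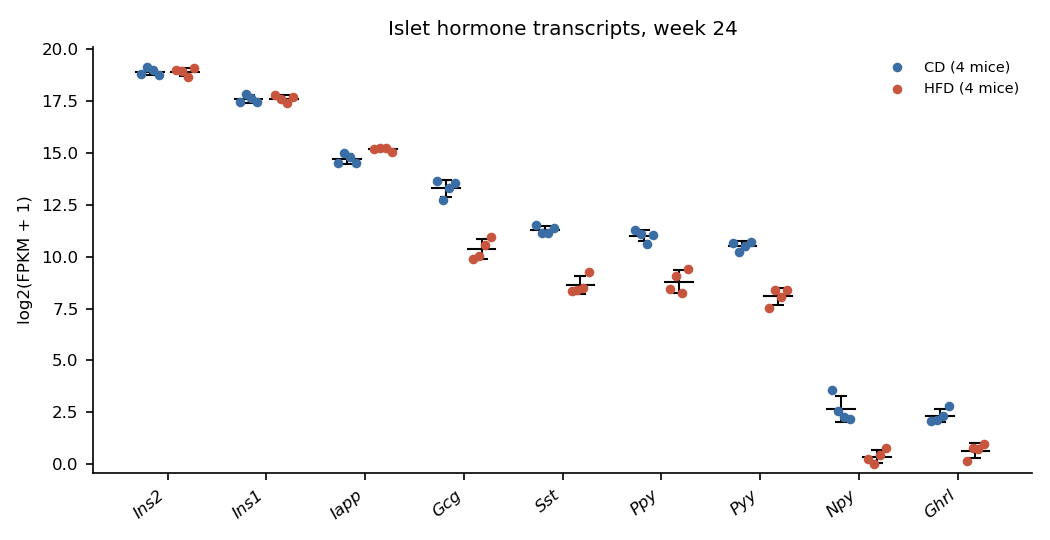
Log2(FPKM + 1) of the 9 islet hormone genes in 4 CD and 4 HFD mice of week 24, points for mice and bars for mean and SD. Ins1 and Ins2 overlap between the diets, Iapp is slightly higher in HFD, and the other 6 genes lie lower in each HFD mouse than in any CD mouse.

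The promoter of Sst is shown because it was the one of 8 hormone genes with a promoter entry that held the cyclic AMP response element. The 300 bases (GRCm38.p6, RefSeq, chr16:23890795-23891094, minus strand) run from 250 bases before to 50 bases after the start of transcription, and capitals mark the match, which begins 48 bases before the start.
Sst: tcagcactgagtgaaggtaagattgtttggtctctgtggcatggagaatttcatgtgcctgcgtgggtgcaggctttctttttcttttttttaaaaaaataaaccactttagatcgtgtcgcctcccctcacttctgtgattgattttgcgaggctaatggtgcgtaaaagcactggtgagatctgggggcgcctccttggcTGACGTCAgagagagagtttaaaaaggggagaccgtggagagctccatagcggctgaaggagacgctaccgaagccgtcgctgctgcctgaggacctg
The motif was searched as TGACGTCA, which reads the same on both strands, and 588 of 32851 promoters of this length (1.79%) held it. A match of letters is a description and not a site in use.

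Identity genes of the same cells fell together with their hormones. In the alpha cell list, 5 of 7 tested genes fell and 1 rose, with a median of -1.54, against 1.73% lower and 6.57% higher of all genes. The same fits without 1 mouse called 5 lower genes each time. Irx1, an alpha cell transcription factor, had 5.61, 3.04, 4.5 and 5.79 FPKM in CD and 0.65, 0.69, 0.79 and 1 FPKM in HFD mice, with a log2 change of -1.66 (adjusted p = 1.1e-05). In Irx1 each HFD mouse was below each CD mouse. Irx2, of the same family, changed by -1.54 (adjusted p = 0.00059). The one alpha cell marker that rose was Gc, which encodes the vitamin D binding protein, at 0.94 (adjusted p = 0.045), and that call held in 2 of the 8 fits without 1 mouse and not without CD606 and CD608.

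All 4 tested delta cell genes fell, with a median of -2.06, where 1.73% of all genes fell. All 4 did so in each fit without 1 mouse. Rbp4, the plasma carrier of retinol, which in mouse islets marks delta cells, had 62.8, 55.6, 52.6 and 65.7 FPKM in CD and 8.14, 5.98, 10.1 and 18 FPKM in HFD mice, with a log2 change of -2.48 (SE 0.30, adjusted p = 0.0054). Hhex, the transcription factor that maintains delta cells, had 5.67, 3.84, 5.71 and 6.49 FPKM in CD and 0.65, 1.44, 1.54 and 0.62 FPKM in HFD mice, with a log2 change of -1.65 (adjusted p = 0.00031). Ffar4, a receptor for long-chain fatty acids, had 2.79, 2.6, 3.25 and 2.89 FPKM in CD and 0.31, 0.47, 0.32 and 0.58 FPKM in HFD mice, with a log2 change of -1.45 (adjusted p = 6.3e-07). The ranges of the diets were apart in all 3 genes. Ffar4 was under 1 FPKM in every HFD mouse, so it was tested only through the CD mice. Without CD606 and CD608, 4 of 7 alpha cell and 3 of 4 delta cell genes still fell, and Rbp4 was at -2.48 (adjusted p = 0.082).

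Beta cell genes mostly did not pass, in contrast to those of the other endocrine cells, although this contrast between lists was not itself tested. Of 10 beta cell markers, 2 rose and none fell, with a median of 0.08, against 6.57% higher, 1.73% lower and a median of 0.08 for all genes. Ucn3, which encodes urocortin 3 and marks mature beta cells, had 315, 272, 313 and 276 FPKM in CD and 377, 511, 387 and 394 FPKM in HFD mice, with a log2 change of 0.50 (SE 0.10, adjusted p = 0.005) that passed in all 8 fits without 1 mouse. Iapp was the other. The transcription factors Pdx1, Mafa and Nkx6-1, which maintain beta cell identity, overlapped between diets at 0.09 (adjusted p = 0.62), -0.27 (adjusted p = 0.38) and 0.20 (adjusted p = 0.26). Slc2a2, the glucose transporter of mouse beta cells, had 231, 165, 165 and 134 FPKM in CD and 137, 86.5, 195 and 183 FPKM in HFD mice, which overlap, at -0.24 (SE 0.30, adjusted p = 0.69).

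Among 23 islet transcription factors tested, 6 fell and 1 rose, against 1.73% lower and 6.57% higher of all genes, and without CD606 and CD608 7 fell and none rose. Those that fell include, besides Irx1, Irx2 and Hhex, Gata6, a factor of pancreas development, at -0.80 (adjusted p = 0.00032). Isl1, a factor used by all endocrine islet cells, rose by 0.28 (adjusted p = 0.025), and this held in 2 of the 8 fits without 1 mouse and not with median ratio scaling (0.21, adjusted p = 0.063).

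The 15 lowest DEGs were led by hormones and markers of the minor cells and held further genes. Kcnj12, a potassium channel of the inward rectifier family, had 4.76, 3.59, 3.58 and 3.22 FPKM in CD and 0.03, 0.06, 0.13 and 0.57 FPKM in HFD mice, with a log2 change of -2.01 (adjusted p = 6.3e-07). Its HFD mice were all under 1 FPKM, so it was tested only through the CD mice, and the means differed 19.2-fold. Fev, a transcription factor known from serotonergic and endocrine precursor cells, had 4.73, 3.51, 5.47 and 5.85 FPKM in CD and 0.45, 0.94, 0.42 and 1.2 FPKM in HFD mice, with a log2 change of -1.76 (adjusted p = 4.9e-05). Gpx3, a secreted glutathione peroxidase, had 175, 96.5, 154 and 149 FPKM in CD and 36.3, 35.4, 47.3 and 45.2 FPKM in HFD mice, with a log2 change of -1.76 (SE 0.19, adjusted p = 0.0013). These 3 genes did not overlap between diets.

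Eef1a2, a translation elongation factor of muscle and neurons, changed by -1.95 (adjusted p = 0.00035), and Msln, which encodes mesothelin, a surface protein of mesothelial cells, by -2.06 (adjusted p = 0.0053). Amy2b, a pancreatic amylase gene and the one acinar marker of 29 that passed, had 7.93, 9.5, 6.81 and 22.5 FPKM in CD and 2.64, 0.66, 0.99 and 1.64 FPKM in HFD mice. CD608, the mouse with the highest acinar sum, was the highest, and the log2 fold change of -2.27 (SE 0.43, adjusted p = 0.027) passed in 3 of the 8 fits without 1 mouse. Amylase genes lie as near-identical copies, so the share of reads given to Amy2b is uncertain.

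The 15 highest DEGs had at most 6.91 FPKM on average in CD mice. Aldh1a3 (chromosome 7, 66390892 to 66427477), which encodes a retinaldehyde dehydrogenase and is known as a marker of failing and dedifferentiated beta cells, had 1.17, 3.39, 2.35 and 2.91 FPKM in CD and 15.6, 62.4, 24.6 and 18.6 FPKM in HFD mice. All HFD mice were above all CD mice, the spread among HFD mice was wide with HFD614 highest, and the means differed 12.3-fold. The log2 fold change of 3.01 (SE 0.48, adjusted p = 0.016) was the highest of all genes tested, was lost without HFD616 (adjusted p = 0.052), and was 3.13 (adjusted p = 0.13) without CD606 and CD608.

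P3h2, a prolyl hydroxylase of collagen chains in basement membranes (chromosome 16, 25960323 to 26105784), had 2.04, 2.49, 3 and 1.99 FPKM in CD and 9.6, 12.1, 13.7 and 12 FPKM in HFD mice, with a log2 change of 1.93 (SE 0.12, adjusted p = 1.8e-07). Slc35f4, of the solute carrier family, had 0.62, 1.48, 0.97 and 0.79 FPKM in CD and 5.44, 5.2, 5.87 and 5.49 FPKM in HFD mice, with a log2 change of 1.74 (adjusted p = 6.2e-07). Rasl10b, a small GTPase of the Ras family, had 2.35, 3.98, 4.49 and 3.77 FPKM in CD and 12, 17.1, 13.8 and 13.4 FPKM in HFD mice, with a log2 change of 1.71 (adjusted p = 3e-05). In these 3 genes every HFD mouse exceeded every CD mouse by a wide margin, unlike the scattered values of Aldh1a3.

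Prss23, a secreted serine protease, had 5.66, 6.6, 5.81 and 6.92 FPKM in CD and 16.6, 24.2, 24.1 and 20.1 FPKM in HFD mice, with a log2 change of 1.61 (adjusted p = 6.3e-07). Gucy2c, the guanylate cyclase receptor of guanylin peptides, had 5.58, 6.29, 8.45 and 7.31 FPKM in CD and 22.8, 24.4, 23.6 and 17.6 FPKM in HFD mice, with a log2 change of 1.55 (adjusted p = 4e-06). Lama5, a laminin chain of vascular basement membranes, had 1.8, 1.73, 1.73 and 1.55 FPKM in CD and 5.22, 8.58, 7.06 and 5.49 FPKM in HFD mice, with a log2 change of 1.47 (adjusted p = 2.9e-06). Again no mouse of either diet entered the other diet's range.

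The other 8 of the 15 highest DEGs changed by between 1.30 and 1.52. They were Lmo1, a LIM domain transcriptional cofactor, Aass, an enzyme of lysine breakdown, Rasd2, a GTPase related to Ras, Cpne4, a copine, Gabra4, a subunit of GABA-A receptors, Vstm2a, Rapgef5, an exchange factor for Rap GTPases, and Kcnip2, an accessory subunit of potassium channels. Gabra4 was tight within diets, with 1.23, 1.61, 2.21 and 2.06 FPKM in CD and 6.62, 6.23, 6.12 and 6.58 FPKM in HFD mice. Of the 15, 14 passed in all 8 fits without 1 mouse, the exception being Aldh1a3, and without CD606 and CD608 the exceptions were Aldh1a3 and Rapgef5, at 1.38 (adjusted p = 0.11).

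**Figure D3:**
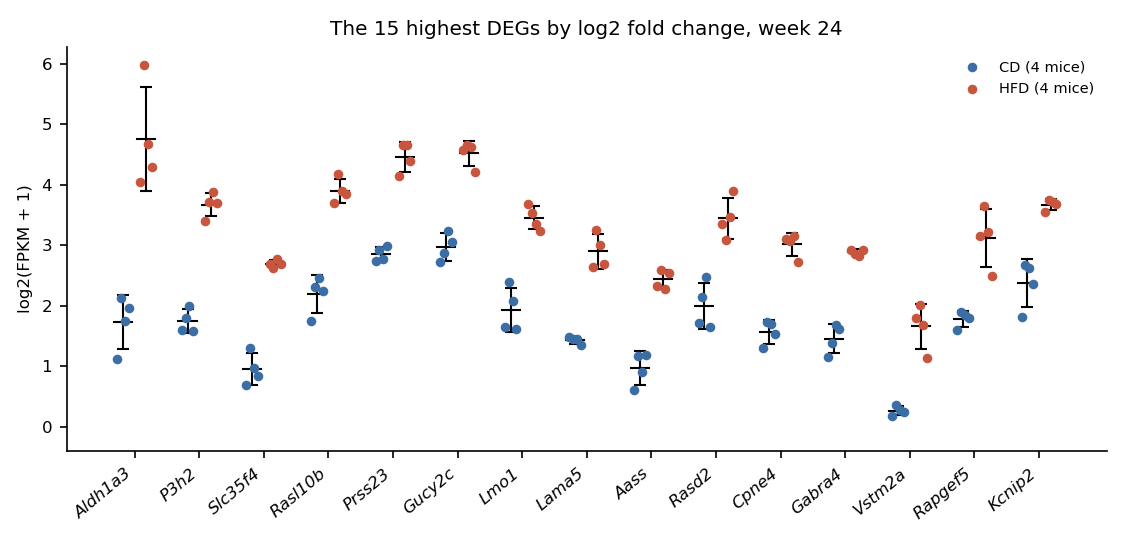
Log2(FPKM + 1) of the 15 highest DEGs of week 24 in 4 CD and 4 HFD mice, points for mice and bars for mean and SD. HFD mice lie above CD mice in all 15 genes, and Aldh1a3 has the widest spread among HFD mice, with HFD614 highest. Vstm2a was tested only through the HFD mice.

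Genes tied to dedifferentiation or normally silenced in beta cells moved in both directions. Of 8 such genes tested, Aldh1a3 rose, and Neurog3, the factor of endocrine precursors, Oat, a mitochondrial aminotransferase, and Cxcl12, a chemokine, fell. Among all genes, 6.57% rose and 1.73% fell. Oat changed by -0.50 (adjusted p = 0.013) and Cxcl12 by -0.61 (adjusted p = 0.017). Neurog3 had 2.3, 3.3, 2.9 and 2.81 FPKM in CD and 1.65, 1.79, 2.62 and 1.45 FPKM in HFD mice, where HFD616 lay within the CD range, and its log2 fold change of -0.42 (SE 0.12, adjusted p = 0.046) passed in 2 of the 8 fits without 1 mouse. None of the 4 passed without CD606 and CD608.

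Genes of the unfolded protein response, by which cells adjust the folding capacity of the endoplasmic reticulum, were moderately higher. Of 28 tested, 10 rose and none fell, against 6.57% of all genes higher, and the list's median was 0.23 against 0.08. The 10 were chaperones and folding factors together with Xbp1, a transcription factor of the response. Creld2, an endoplasmic reticulum protein induced by folding stress, had 29.9, 31.7, 36.8 and 39.2 FPKM in CD and 45.5, 50.9, 54.5 and 45 FPKM in HFD mice, with a log2 change of 0.50 (SE 0.09, adjusted p = 0.0035). Canx, the lectin chaperone calnexin, had 102, 88.3, 105 and 98.6 FPKM in CD and 119, 156, 138 and 125 FPKM in HFD mice, with a log2 change of 0.44 (SE 0.09, adjusted p = 0.0069). Hyou1, a large chaperone of the Hsp70 family, had 117, 97.3, 114 and 118 FPKM in CD and 131, 174, 159 and 139 FPKM in HFD mice, with a log2 change of 0.43 (SE 0.10, adjusted p = 0.012). These 3 kept the call in all 8 fits without 1 mouse and without CD606 and CD608, and their groups did not overlap.

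Smaller changes were seen in the 7 other members that passed. Manf, a secreted stress factor, changed by 0.36 (adjusted p = 0.02), Pdia4, a disulfide isomerase, by 0.39 (adjusted p = 0.048), Hsp90b1, the endoplasmic Hsp90, by 0.33 (adjusted p = 0.025), and Xbp1 by 0.26 (adjusted p = 0.042), while Sdf2l1, Dnajc3 and Dnajb11 changed by 0.36, 0.32 and 0.31. Each of the 7 held in 2 to 4 of the 8 fits without 1 mouse and none with median ratio scaling, with which 3 of 28 rose. That scaling also lowered the higher genes in all from 769 to 522. Leaving out 1 mouse gave 3 to 11 higher members, and without CD606 and CD608 6 of 28 rose, where 2.38% of all genes did. Hspa5, the main chaperone BiP of this compartment, had 386, 328, 368 and 408 FPKM in CD and 399.97, 539, 435 and 410.3 FPKM in HFD mice, where HFD611 and HFD617 lay close to CD608, and did not pass at 0.25 (adjusted p = 0.13). Ddit3, which encodes the stress factor CHOP, was at 0.09 (adjusted p = 0.73).

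Promoters of 4 genes that passed are shown because they hold the letters of an element through which the unfolded protein response is known to act. The ER stress response element was searched on both strands as CCAAT and CCACG with 9 bases of any kind between them. It was found in 9 of 28 promoters of the list (Calr, Canx, Creld2, Derl3, Dnajc3, Hsp90b1, Hspa5, Pdia6 and Syvn1) and in 39 of 32851 promoters in all (0.119%), and 4 of the 9 genes passed. Element II, searched as ATTGG, 1 base of any kind and CCACG, was found in Dnajb11 and Herpud1 and in 12 promoters in all (0.0365%). The windows (GRCm38.p6, RefSeq, 300 bases as for Sst, capitals for the match, in reverse where it lies on the other strand) are chr15:88819396-88819695 on the plus strand for Creld2, chr11:50325624-50325923 on the minus strand for Canx, chr10:86705395-86705694 on the minus strand for Hsp90b1, with 2 matches, and chr16:22857595-22857894 on the plus strand for Dnajb11.
Creld2: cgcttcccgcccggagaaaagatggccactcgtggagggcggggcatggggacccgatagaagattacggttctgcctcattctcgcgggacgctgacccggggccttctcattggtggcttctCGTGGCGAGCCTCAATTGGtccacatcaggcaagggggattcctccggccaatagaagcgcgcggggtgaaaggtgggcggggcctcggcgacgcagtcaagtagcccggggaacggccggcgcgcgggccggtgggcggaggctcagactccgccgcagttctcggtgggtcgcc
Canx: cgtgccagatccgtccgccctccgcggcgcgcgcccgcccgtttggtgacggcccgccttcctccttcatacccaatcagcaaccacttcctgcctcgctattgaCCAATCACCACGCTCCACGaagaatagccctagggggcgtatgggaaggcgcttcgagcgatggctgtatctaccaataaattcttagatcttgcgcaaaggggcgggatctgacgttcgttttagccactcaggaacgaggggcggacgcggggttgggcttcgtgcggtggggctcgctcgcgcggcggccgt
Hsp90b1: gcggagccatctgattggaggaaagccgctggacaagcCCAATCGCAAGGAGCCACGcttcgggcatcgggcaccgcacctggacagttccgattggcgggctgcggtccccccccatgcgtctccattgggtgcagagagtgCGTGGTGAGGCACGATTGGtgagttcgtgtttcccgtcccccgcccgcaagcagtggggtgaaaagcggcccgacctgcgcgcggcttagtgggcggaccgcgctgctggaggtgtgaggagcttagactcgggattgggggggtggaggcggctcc
Dnajb11: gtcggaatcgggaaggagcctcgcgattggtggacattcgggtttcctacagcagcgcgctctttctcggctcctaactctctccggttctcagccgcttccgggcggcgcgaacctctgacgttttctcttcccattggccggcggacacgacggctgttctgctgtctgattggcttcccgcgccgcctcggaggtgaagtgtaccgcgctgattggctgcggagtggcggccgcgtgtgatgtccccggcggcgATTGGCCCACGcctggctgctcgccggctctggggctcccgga
Hspa5 and Calr, which held the element, did not pass, and Hyou1 and Manf, which did not hold it in this window, passed, so the letters and the calls do not coincide.

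Transcripts of vessels and their supporting cells were higher as well. Of 12 endothelial markers, 5 rose and none fell, and all 12 log2 fold changes were above 0, with a median of 0.24. Of all 11709 genes tested 6.57% rose and 8389 were above 0, with a median of 0.08. Cdh5, the cadherin that joins endothelial cells, had 6.24, 5.38, 5.65 and 5.22 FPKM in CD and 7.6, 10.2, 9.24 and 7.02 FPKM in HFD mice, with a log2 change of 0.51 (SE 0.11, adjusted p = 0.0072). Robo4, a receptor of endothelial cells, had 5.59, 4.31, 5.28 and 4.77 FPKM in CD and 7.98, 9.09, 8.86 and 6.86 FPKM in HFD mice, with a log2 change of 0.62 (adjusted p = 0.0012). Both kept apart between diets, and both passed in all 8 fits without 1 mouse. Esam, Pecam1 and Plvap, adhesion and diaphragm proteins of capillaries, changed by 0.42, 0.33 and 0.28. Leaving out 1 mouse gave 2 to 7 higher members, and without CD606 and CD608 Robo4 alone passed.

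In the stromal and pericyte list, 4 of 9 tested genes rose and none fell, with a median of 0.49, and 2 to 6 rose with 1 mouse left out, against 6.57% and 0.08 for all genes. Pdgfrb, the growth factor receptor that defines pericytes, had 3.26, 3.17, 2.98 and 2.68 FPKM in CD and 5.17, 7.9, 7.08 and 4.56 FPKM in HFD mice, with a log2 change of 0.81 (SE 0.13, adjusted p = 0.0017). Rgs5, a regulator of G protein signalling in pericytes, had 27.6, 31.1, 31.6 and 25.8 FPKM in CD and 40.7, 59.2, 52.8 and 40.3 FPKM in HFD mice, with a log2 change of 0.70 (SE 0.12, adjusted p = 0.0034). In both genes the CD mice lay close together below all HFD mice, among which HFD614 was highest. Cspg4 (the proteoglycan NG2) changed by 0.49 (adjusted p = 0.017) and Col3a1, a fibrillar collagen, by 0.74 (adjusted p = 0.032), which held in 5 and 2 of the 8 fits without 1 mouse. Without CD606 and CD608, Pdgfrb and Rgs5 passed and the other 2 did not.

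Of 17 genes of the matrix and basement membrane, 8 rose and none fell, with a median of 0.41, again against 6.57% and 0.08 for all genes. P3h2 is 1 of them. Col6a1, a chain of collagen VI, had 1.69, 1.38, 1.19 and 1.41 FPKM in CD and 2.56, 4.18, 4 and 2.32 FPKM in HFD mice, with a log2 change of 0.79 (adjusted p = 0.0029). Sparc, a matrix protein that binds collagen, had 24.6, 22, 22.1 and 20.9 FPKM in CD and 30.2, 41.6, 38.2 and 28 FPKM in HFD mice, with a log2 change of 0.59 (adjusted p = 0.0052). Smoc1, a related basement membrane protein, had 2.18, 3.91, 3.2 and 2.29 FPKM in CD and 8.74, 9.95, 8.61 and 5.98 FPKM in HFD mice, with a log2 change of 1.26 (adjusted p = 0.00095). In each of these 3 the ranges were apart. Col6a2, Col4a1, Col4a2 and Col18a1 changed by 0.73, 0.48, 0.55 and 0.44, although Col4a1 and Col4a2 overlapped between diets and held in 3 and 2 of the 8 fits without 1 mouse. With 1 mouse left out, 6 to 10 rose, and without CD606 and CD608 4 did, Col6a1, Col6a2, Smoc1 and P3h2.

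**Figure D4:**
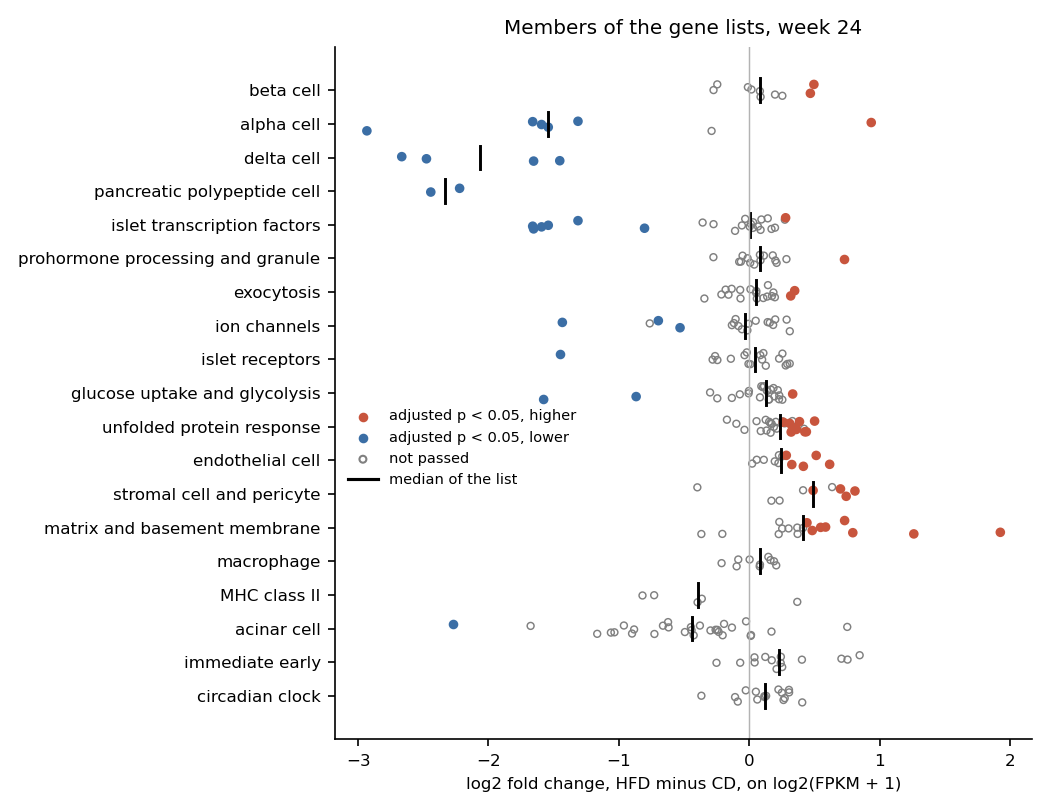
Log2 fold changes (HFD minus CD, on log2(FPKM + 1)) of the tested members of 19 gene lists at week 24, each point 1 gene, filled where it passed, with the median of each list as a bar. The alpha, delta and pancreatic polypeptide cell lists lie mostly below 0, and the unfolded protein response, endothelial, stromal and matrix lists mostly above it.

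Genes of hormone processing, secretion and excitability gave few calls. Scg2, which encodes the granule protein secretogranin II, had 2447, 3186, 3136 and 2363 FPKM in CD and 4000.1, 5797, 4112 and 4582 FPKM in HFD mice, with a log2 change of 0.73 (SE 0.13, adjusted p = 0.0052), and was the one of 15 genes of prohormone processing and granules that passed, without overlap. In the exocytosis list 2 of 19 rose, Syt4 and Unc13b, at 0.32 (adjusted p = 0.043) and 0.35 (adjusted p = 0.033), where 6.57% of all genes rose, and neither passed without CD606 and CD608. Of 18 ion channel genes 3 fell, among them the acid-sensitive potassium channel Kcnk3 at -1.43 (adjusted p = 1e-05), which held in all 8 fits without 1 mouse, and Trpm2 at -0.70 (adjusted p = 0.022), against 1.73% of all genes lower. With 1 mouse left out 1 to 3 fell, and without CD606 and CD608 Kcnk3 alone did. Kcnk3 averaged 0.648 FPKM in HFD mice and was tested only through the CD mice. Kcnj11 and Abcc8, the subunits of the ATP-sensitive potassium channel that couples glucose to insulin release, did not pass at 0.18 (adjusted p = 0.19) and 0.31 (adjusted p = 0.07). Ffar4 was the one of 18 islet receptors that passed, and Glp1r, the receptor of incretin drugs, was at 0.23 (adjusted p = 0.69).

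In glucose uptake and glycolysis, 1 of 24 genes rose and 2 fell, against 6.57% and 1.73% of all genes. Pdk4, the kinase that shuts down pyruvate dehydrogenase, had 8.24, 3.48, 5.67 and 6.67 FPKM in CD and 0.81, 1.8, 1.48 and 1.13 FPKM in HFD mice, with a log2 change of -1.58 (SE 0.23, adjusted p = 0.0046). Fbp1, an enzyme of gluconeogenesis, changed by -0.87 (adjusted p = 0.0091), and Pgk1, a kinase of glycolysis, by 0.33 (adjusted p = 0.014). Pdk4 and Fbp1 each lay apart between diets, but without CD606 and CD608 none of the 24 genes passed, with Fbp1 at -0.79 (adjusted p = 0.094), Pgk1 at 0.39 (adjusted p = 0.052) and Pdk4 at an adjusted p of 0.09. Of 22 genes of insulin receptor signalling 1 fell, Grb10, an adaptor that binds the receptor, at -0.91 (adjusted p = 0.0024).

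Lipid genes passed rarely, with 3 of 31 fatty acid genes higher, the nuclear receptor Pparg at 0.31 (adjusted p = 0.048), the droplet coat protein Plin2 at 0.49 (adjusted p = 0.03) and the fatty acid binding protein Fabp4 at 0.86 (adjusted p = 0.042). Pparg held in none of the 8 fits without 1 mouse, Plin2 in 3 and Fabp4 in 2. Of 20 genes of cholesterol synthesis and transport 1 rose, the sterol exporter Abcg1 at 0.33 (adjusted p = 0.029). Of all genes 6.57% were higher, and without CD606 and CD608 none of these lipid genes passed.

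Immune cell markers gave no calls, and a few interferon-stimulated genes did. No gene passed among 10 macrophage markers, 5 MHC class II genes and 1 tested B cell marker, and the T cell markers were too low to be tested. Cd74, the invariant chain of MHC class II, averaged 120.1 ± 35 FPKM over CD and 79 ± 42.2 FPKM over HFD mice (SD, n = 4 each), highest in CD606 and CD608 and lowest in HFD614, and was at -0.82 (adjusted p = 0.49). Of 12 interferon-stimulated genes 3 rose (6.57% of all genes did), 1 to 3 with 1 mouse left out and 1 without CD606 and CD608. Usp18, the protease that removes ISG15, had 9.75, 9.5, 9.7 and 9.36 FPKM in CD and 13.5, 15.6, 15 and 14.8 FPKM in HFD mice, with a log2 change of 0.57 (SE 0.08, adjusted p = 0.00022). Its CD mice were almost equal and all HFD mice were higher, while Bst2 and Ifi44 changed by 0.40 and 0.39 and held in 3 and 4 of the 8 fits without 1 mouse.

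In the chemokine axis of CXCL12, the ligand fell and both receptors rose. Of the 5 genes tested in this list, 2 rose and 1 fell, against 6.57% and 1.73% of all genes. Ackr3, the scavenging receptor, had 1.4, 1.14, 1.36 and 1.31 FPKM in CD and 4.23, 5.97, 4.98 and 2.5 FPKM in HFD mice, with a log2 change of 1.19 (SE 0.18, adjusted p = 0.0019). Cxcr4, the signalling receptor, had 2.33, 2.62, 5.31 and 5.16 FPKM in CD and 9.52, 14.5, 9.54 and 7.85 FPKM in HFD mice. CD606 and CD608, the libraries with lymphoid transcripts, were the higher CD mice in Cxcr4, and its log2 fold change of 1.25 (SE 0.28, adjusted p = 0.042) held in 1 of the 8 fits without 1 mouse but was 1.68 (adjusted p = 0.00037) without both. Cxcl12 had 2.04, 1.33, 1.55 and 3.03 FPKM in CD and 0.95, 1.01, 0.85 and 0.86 FPKM in HFD mice and was the lower in every HFD mouse. The call for Cxcl12 was lost in at least 1 of the 8 fits without 1 mouse, and without CD606 and CD608 together.

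No gene passed among 9 of proliferation, 14 immediate early genes, 16 of the circadian clock, 5 of red blood cells and 6 of the Reg family. The immediate early gene Fos had 14.1, 10.1, 33.6 and 15 FPKM in CD and 37, 40.4, 15.2 and 36.9 FPKM in HFD mice, which overlap, at 0.85 (adjusted p = 0.34). Mki67, a marker of dividing cells, was under the limit for testing, with 0.28, 0.31, 1.08 and 0.62 FPKM in CD and 0.06, 0.19, 0.18 and 0.1 FPKM in HFD mice, and was highest in CD606 and CD608. One of 6 tested ductal markers fell, the tetraspanin Tspan8 at -1.39 (adjusted p = 1.2e-05), where 1.73% of all genes fell.

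The study chose 34 key genes of islets on these and the other mice, so their direction is not independent evidence. In this list, 26 genes reached 1 FPKM in any CD mouse and 34 in any library, so some were tested only through the HFD mice. The filter thus favoured a rise. Among all genes tested, 6.57% rose and 1.73% fell. Of the 32 tested at week 24, 29 rose and none fell, with a median of 0.91, and 27 to 31 rose with 1 mouse left out. They include P3h2, Slc35f4, Lmo1, Cpne4, Vstm2a, Rapgef5, Smoc1 and Cxcr4, given above, and Slc4a10, a bicarbonate transporter, at 0.94 (adjusted p = 4.8e-05), and Dll4, a Notch ligand of endothelial tip cells, at 0.75 (adjusted p = 0.0013). From the study's list of T cell immunity, also chosen on these mice, 7 genes could be tested and none passed.

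Pathways were also counted for 14 names chosen from the deposited KEGG annotation, to be read against 6.57% higher and 1.73% lower of all genes. Counts without CD606 and CD608 are to be read against 2.38% higher, the share of all genes in that setting. With 1 mouse left out, 382 to 980 of all genes were higher. Protein processing in the endoplasmic reticulum had 28 of 198 members higher and 1 lower. It had 10 to 34 higher when 1 mouse was left out and 11 without CD606 and CD608. With median ratio scaling it also had 11 higher, in a setting where 522 of all genes were higher. Its members besides those above include Sec61a1, a subunit of the translocation channel, at 0.32 (adjusted p = 0.023), and Rrbp1, a ribosome receptor of the rough membrane, at 0.38 (adjusted p = 0.016). ECM-receptor interaction had 16 of 105 higher and 3 lower, and axon guidance had 20 of 157 higher and 10 lower. Leaving out 1 mouse gave 8 to 22 higher members in each of these 2 pathways, and leaving out CD606 and CD608 gave 7 in each. Of the cytokine-cytokine receptor interaction pathway 10 of 94 were higher and 2 lower, and of T cell receptor signaling 4 of 77 were higher, with 6 and 1 higher without CD606 and CD608. Oxidative phosphorylation had 8 of 122 higher and 1 lower, insulin secretion 4 of 81 higher and 2 lower, and ribosome 3 of 154 higher and none lower.

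Other mice, with their own CD controls, were measured after 4, 8, 12, 16 and 20 weeks, so that the 86 DEGs of week 24 could be followed in libraries that had no part in their choice. At week 4, where 0 genes passed (0% of 11569 tested), 62 of the 76 DEGs tested had the same sign and none passed. By direction these were 18 of 27 higher and 44 of 49 lower DEGs, in a week in which 38% of all genes were above 0. The same sign and a pass were found for 35 of 76 at week 8 (5.27% of all genes passed there), for 58 of 78 at week 12 (4.53%), for 76 of 81 at week 16 (8.45%) and for 62 of 78 at week 20 (4.74%). Without regard to a pass, the higher DEGs kept their sign in 26 of 27, 28 of 29, 32 of 32 and 29 of 29 cases in weeks 8, 12, 16 and 20, where 22.2%, 52.2%, 53.4% and 46.3% of all genes were above 0. For the lower DEGs it was 47 of 49 at week 8 and 49 of 49 in the other 3 weeks. Over weeks 4, 8, 12, 16 and 20, the median log2 fold change of the higher DEGs was 0.09, 0.58, 0.77, 0.99 and 0.92, and that of the lower DEGs -0.15, -0.45, -0.92, -1.28 and -1.22. Among all genes the median was between -0.11 and 0.01 in these weeks. Of the 11 DEGs of week 8 (0.0945%) 3 were shared with week 24, and of the 39 of week 12 (0.346%) 24 were. Week 16 gave 113 DEGs (0.967%), of which 58 were shared with week 24, 67.4% of the week 24 and 51.3% of the week 16 DEGs. For week 20, with 64 DEGs (0.547%), the 46 shared were 53.5% and 71.9% of the respective lists.

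Of the 86 DEGs, 28 passed the same way at each of weeks 8, 12, 16 and 20. Gcg was at -0.15, -0.58, -1.41, -2.25 and -2.07 on the log2 scale in weeks 4 to 20 before -2.93 at week 24. Aldh1a3 went from 0.66 at week 4 to 2.68 at week 12, 3.02 at week 16 and 1.91 at week 20. The 7 that passed in no other week (picked out with their values known) include Cfi, which was lower, and Ccn2, Kcns3, Lin7a, Mgp and Plac9a, which were higher. Kcns3, Lin7a and Plac9a averaged 0.228, 0.255 and 0.305 FPKM in CD mice and were tested only through the HFD mice. Cfi averaged 0.285 FPKM in HFD mice and was tested only through the CD mice. A gene too low to be tested in a week was counted there as not passed. Between 76 and 81 of the 86 DEGs were tested in each other week. Mgp, the matrix Gla protein that inhibits calcification, had 23.7, 22, 15.8 and 18.1 FPKM in CD and 45.3, 46.1, 43.1 and 36.3 FPKM in HFD mice of week 24, with a log2 change of 1.07 (adjusted p = 7.2e-05). Ccn2, a matrix growth factor, changed by 1.03 (adjusted p = 0.0042). A gene that passed in 1 week is not thereby shown to differ from the other weeks.

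**Figure D5:**
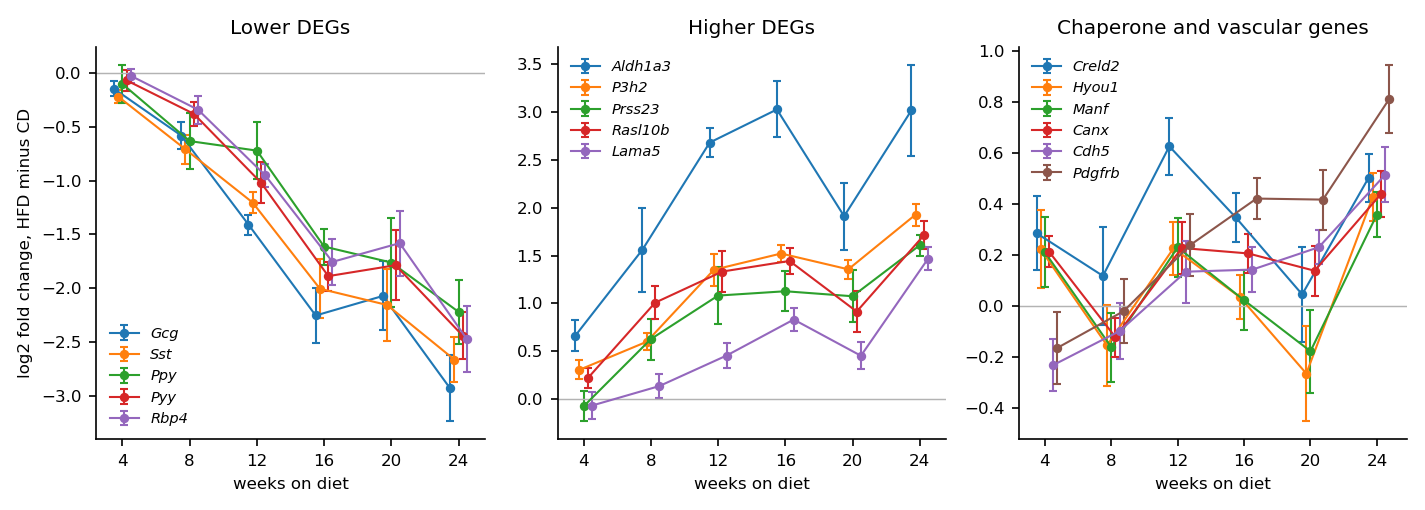
Log2 fold changes (HFD minus CD, on log2(FPKM + 1)) with standard errors in islets after 4 to 24 weeks on diet, 4 HFD and 4 CD mice per week and other mice at each week, for 5 lower DEGs, 5 higher DEGs and 6 chaperone and vascular genes. The hormones move away from 0 from week 8 on, while Hyou1 and Manf lie below 0 at week 20 and above it at week 24.

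The difference between diet effects was tested in 1 fit of all 48 islet libraries over 12378 genes. Against week 4, 334 genes differed (2.7%), 253 with the higher effect at week 24 (2.04%) and 81 with the lower one (0.654%), and 17.3% had an unadjusted p under 0.05. Gcg differed by -2.78 (adjusted p = 2e-06), Rbp4 by -2.45 (adjusted p = 4.2e-06) and Sst by -2.44 (adjusted p = 7e-06). At the other end were Aldh1a3 at 2.35 (adjusted p = 0.0045), Prss23 at 1.68 (adjusted p = 0.0024) and Slc35f4 at 1.67 (adjusted p = 1.8e-06). Among vascular genes, Cdh5 differed by 0.75 (adjusted p = 0.0018) and Pdgfrb by 0.98 (adjusted p = 0.00099), and 3 of 12 endothelial, 3 of 10 stromal and 5 of 19 matrix genes passed. No gene of the unfolded protein response did, of 29 tested.

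Against week 12, 30 genes differed (0.242%), 20 with the higher effect at week 24 (0.162%) and 10 with the lower one (0.0808%), and 8.94% had an unadjusted p under 0.05. Gcg differed by -1.52 (adjusted p = 0.036) and Rbp4 by -1.52 (adjusted p = 0.021), while Aldh1a3 differed by 0.33 (adjusted p = 0.87). Pdyn, which encodes prodynorphin, was at 2.19 at week 12 and -0.47 at week 24, a difference of -2.66 (adjusted p = 0.013). Between weeks 20 and 24 no gene passed in limma, where 1534 (12.4%) had an unadjusted p under 0.05 and median ratio scaling gave 2. The nearest were Ptges, a prostaglandin E synthase, at 0.98 and Lama5 at 1.01, both at an adjusted p of 0.062. The unfolded protein response had a median of -0.13 and 0 genes passed at week 20, and its median difference was 0.36, with 14 of 29 genes at an unadjusted p under 0.05 and none past the adjusted one.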

How the data were processed

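The authors deposited FPKM values, rounded to 2 decimals, for 21990 genes in 96 libraries sequenced on a BGISEQ-500 instrument, and 1835 genes had no values. The submitters' processing notes name HISAT2 2.0.4, Bowtie2 2.2.5, RSEM 1.1.12, DESeq2 and GRCm38.p5 without their roles. Depth per library is unknown from FPKM, so no counting error was computed. The deposited group means, log2 ratios, DEGseq p- and q-values and module columns of the authors were not used. Entrez identifiers of 21823 genes were found in RefSeq tables of GRCm38.p6, and 1273 symbols were updated.

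Libraries were grouped by the labels. Within week 24, log2(FPKM + 1) was compared between 4 HFD and 4 CD mice by limma 3.58.1 in R 4.3.3, with a variance trend and robust variances, for genes that reached 1 FPKM in 4 or more of the 8 libraries (3 of 7 or 2 of 6 where libraries were left out), with Benjamini-Hochberg adjustment over all genes tested. No sources say that the mice of a group were housed apart, so the p-values measure the spread between these mice. Week 24 effects were compared with those of weeks 4, 12 and 20 as contrasts in a single fit of the 48 islet libraries. The insulin share was compared by an exact permutation test in Python 3.11.15. The script was tested on simulated data.

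Genes are named by a rule, as the 15 highest and 15 lowest DEGs, the members of gene lists and KEGG pathways, and the 3 highest and 3 lowest genes of each contrast among those that passed in it. Some genes that this rule names are not reported here, although they are in the counts. The members, lists and tests were chosen with earlier results of these data known. Promoters are 250 bases before to 50 bases after RefSeq starts. No replicate numbers pair CD and HFD mice. The alternatives tried were a pseudocount of 0.1, other filters, limma without trend and robust variances, median ratio scaling, rescaling without Ins1 and Ins2, all 12 islet groups in 1 fit, and leaving out each mouse.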

Additional observations from a re-analysis of the deposited data

Results flagged for a closer look

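In 126 genes, 252 groups of 4 mice were examined for a library far from the other 3, and 13 were found, where chance gives about 1 in 20 groups. In CD mice, CD608 stood apart in G6pc2 (1333 FPKM, highest), Pparg (5.3 FPKM, lowest), Slc4a10 (4.91 FPKM, lowest), Dll4 (5.95 FPKM, lowest), Ntn1 (1.17 FPKM, highest), Rrbp1 (66.6 FPKM, highest) and Ptges (2.61 FPKM, highest), and CD605 in Pgk1 (40.3 FPKM) and Grb10 (6.48 FPKM). In HFD mice, HFD614 stood apart in Ucn3 at 511 FPKM and in Hexa at 129 FPKM, and HFD616 in Gaa at 95.4 FPKM and in Fos at 15.2 FPKM. Ucn3, Pgk1, Grb10, Slc4a10, Dll4 and Ptges passed in each of the 8 fits without 1 mouse, Rrbp1 and Gaa in 5, Ntn1 and Hexa in 4, Fos and Pparg in none and G6pc2 in 1, which is the fit without CD608.

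The diet effect differed between week 24 and an earlier week in 12 cases at the ends of these contrasts, by limma in 1 fit of all islet libraries. These genes were taken from those that passed in the contrast, so that all 12 differ by choice. Values are week 24 minus the other week on the log2 scale. Against week 4, the differences were 2.35 for Aldh1a3, 1.68 for Prss23 and 1.67 for Slc35f4, and -2.78 for Gcg, -2.45 for Rbp4 and -2.44 for Sst. Against week 12, they were 1.28 for Gls2, 1.16 for Ntn1, 1.02 for Vstm2a, -2.66 for Pdyn, -1.52 for Rbp4 and -1.52 for Gcg. Gls2, a glutaminase, was at -0.98 at week 12 and 0.29 (adjusted p = 0.11) at week 24, and Pdyn was at 2.19 at week 12 and -0.47 (adjusted p = 0.29) at week 24, so neither passed at week 24 itself. Ntn1, which encodes netrin 1, was at -0.26 at week 12 and 0.89 (adjusted p = 0.018) at week 24. Vstm2a at week 12 and Slc35f4 at week 4 were too low to be tested in those weeks alone.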

How the results depend on the processing

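No counts or depths stand behind the FPKM, so values under 1 FPKM have at most 2 digits and unknown error. With a pseudocount of 0.1, DEGs numbered 170 (85 higher, 85 lower). Requiring 1 FPKM in all 8 libraries gave 42 DEGs, 16 of them lower, and 118 lower genes that passed. The adjusted p alone gave 972 genes. No filter gave 435 lower genes that passed and median ratio scaling 340, with 60.6% of the passed genes higher. All 12 islet groups in 1 fit gave 1255 higher and 365 lower. Leaving out CD606 and CD608 together, chosen after the data were seen, gave 283 higher genes from fewer mice.

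Without 1 mouse, DEGs numbered 75 to 96, higher DEGs 28 to 42 and lower DEGs 42 to 58, and genes that passed were 382 to 980 higher and 149 to 219 lower. Higher genes fell to 416 without CD605, 508 without CD606, 465 without CD608, 445 without HFD614 and 382 without HFD616, each fit having fewer mice. The insulin share difference (0.46 percentage points) ranged from -1.16 without CD608 to 1.91, and was -0.58 without HFD617. No paired analysis was possible because the CD and HFD mice are different animals, the sources used here give no shared batch, and their numbers only name them.

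Genes that differed from week 4 were 334, and 202 to 417 without 1 mouse (212 without CD608, 217 without HFD614, 202 without HFD616), 218 from the 16 libraries of both weeks alone and 212 without Ins1 and Ins2. From week 12 they were 30, and 15 to 56 without 1 mouse (19 without CD608, 18 without HFD614, 15 without HFD616, 56 without HFD617) and 102 without Ins1 and Ins2. From week 20 they were 0, and 0 to 20 without 1 mouse (20 without HFD611, 2 without CD608 and 2 without HFD617), 2 with median ratio scaling and 3 without Ins1 and Ins2. Because more DEGs were followed, a pseudocount of 0.1 gave 106, 127, 134, 155 and 145 of the same sign in weeks 4, 8, 12, 16 and 20, and 90, 135 and 96 that also passed in weeks 12, 16 and 20. Apart from the insulin share, no direction was reversed under the alternatives run, where a gene was counted only if it passed in the main fit or in the alternative. Of 126 named genes, 102 stayed on their side of the threshold with median ratio scaling, 92 to 119 without 1 mouse and 82 without CD606 and CD608, as did 119 of 124 without Ins1 and Ins2. The causes of these shifts were not tested.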

Other observations

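Subunits of the vacuolar proton pump, which acidifies secretory granules and lysosomes, were among the 8 genes of the oxidative phosphorylation pathway that were higher in HFD islets at week 24. Of the 8, 5 belong to it, Atp6v0b, Atp6v0c, Atp6v0d1, Atp6v0e and Atp6v1d, with log2 fold changes of 0.36, 0.27, 0.27, 0.33 and 0.28. Of all 17 subunits tested, counted after their values were seen, these 5 rose and none fell, with a median of 0.18, against 6.57% higher and a median of 0.08 for all genes, and 2 to 5 rose with 1 mouse left out. With median ratio scaling, 3 rather than 8 genes of the oxidative phosphorylation pathway were higher. Atp6v0b had 111, 141, 135 and 123 FPKM in CD and 161, 176, 163 and 156 FPKM in HFD mice (adjusted p = 0.014 by limma) and passed in all 8 fits without 1 mouse, while Atp6v0c and Atp6v0d1 held in 1 each. Without CD606 and CD608 none of these subunits passed, and Atp6v0b was at an adjusted p of 0.067. No subunit of the respiratory chain proper other than Ndufa4l2, a relative of a cytochrome oxidase subunit, was among the 8.

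The lysosomal enzyme genes Ctsd, Hexa and Gaa were singled out because they were higher, so nothing is said here of lysosomal genes as a group. Ctsd, the protease cathepsin D, had 135, 133, 156 and 124 FPKM in CD and 177, 192, 174 and 166 FPKM in HFD mice, with a log2 change of 0.37 (adjusted p = 0.012 by limma) that held in all 8 fits without 1 mouse and without CD606 and CD608. Hexa, a hexosaminidase, changed by 0.35 (adjusted p = 0.023) and Gaa, the acid alpha-glucosidase, by 0.36 (adjusted p = 0.016), in 4 and 5 of the 8 fits. All 4 HFD mice were above all 4 CD mice in the 3 genes, as in 13.7% of all genes tested.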
